A study of Mus musculus with 4 samples.

Results

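Early pachytene spermatocytes are the germ cells that have just completed synapsis, the pairing of homologous chromosomes along the synaptonemal complex. They were identified here among single-cell RNA counts of the proximal mouse testis at postnatal day 14 (P14), an age at which the first wave of spermatogenesis reaches pachytene. The cells were chosen by transcripts. A barcode was kept if it had 1000 to 4500 detected genes, at least 3 unique molecular identifiers (UMIs, 1 per captured transcript) of Ddx4, Dazl and Sycp3 together, and at least 1 UMI of at least 3 of Gml, Gml2, Rsph1, Zfp820, 1700102P08Rik and Tesmin. This selected 999 of 46001 deposited barcodes, or of 22567 with 1000 to 4500 genes.

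The 4 libraries were 2 controls and 2 Sox17-cKO (SF1Cre:Sox17flox/flox), all from C57BL/6 mice and each from the pooled cells of 3 pups. The control genotype is SF1Cre in the sample labels but Sox17flox/flox without Cre in the study's methods, so whether the groups are matched for Cre or for the floxed allele is not settled. SF1Cre (Nr5a1-Cre) is active in the somatic cells of the gonad. The tissue was the part that holds the rete testis, the collecting network at the testis end, and the neighbouring tubules. Since animals were pooled, n is the number of libraries. P-values between genotypes or library numbers measure the spread between pools. Those for stage and its interaction compare cells of the same library, and measure how that difference varies between pools. Throughout, 4 values in a row are given in the order control 1, control 2, Sox17-cKO 1, Sox17-cKO 2.

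In prophase of meiosis I, programmed DNA breaks are made in leptotene and repaired on the homologue through zygotene and pachytene. At pachytene the X and Y, which pair only over a short region, are packed into the sex body and silenced. The same stage starts a broad program for piRNA production, sperm-specific enzymes and the flagellum, part of it driven by the factors A-MYB (gene Mybl1), TCFL5 and RFX2. A-MYB is known to bind sequences with the core AACGG.

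Upstream sequence of Tesmin, which helped choose the cells, and of Piwil1, a pachytene gene that was not used, is printed because each holds this core ahead of the RefSeq start and outside the gene's GENCODE exons (RefSeq promoter table, GRCm38.p6, plus strand, up to the first annotated exon base of the gene within the 250 bases). Capitals mark AACGG or its reverse complement CCGTT.
Tesmin, chr19:3388607-3388856: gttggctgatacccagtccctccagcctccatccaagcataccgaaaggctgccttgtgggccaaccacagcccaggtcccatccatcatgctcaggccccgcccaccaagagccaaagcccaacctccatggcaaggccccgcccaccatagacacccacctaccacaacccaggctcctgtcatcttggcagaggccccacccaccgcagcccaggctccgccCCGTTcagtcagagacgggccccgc
Piwil1, chr5:128735996-128736173: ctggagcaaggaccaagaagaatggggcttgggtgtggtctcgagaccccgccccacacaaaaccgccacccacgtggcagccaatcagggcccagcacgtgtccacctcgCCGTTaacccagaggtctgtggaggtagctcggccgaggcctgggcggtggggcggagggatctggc

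GENCODE also gives Piwil1 a start further upstream, at 128702524. The windows of 1700102P08Rik and Hspa2, taken by the RefSeq start, also hold the core, but it lies after the start that GENCODE gives, so they are not printed. The shares below use RefSeq starts. The core stood in 14.5% of all 32851 mouse promoters of this length in the table. Among promoters of genes tested below it stood in 21.1%, among those of genes higher in early pachytene cells in 25.6% and among those of genes lower in them in 19.1%. The RFX half-site GTTGCC stood in 10.4%, 10.9%, 12.2% and 9.55% of the same 4 sets, and the E-box CACGTG in 6.02%, 8.72%, 9.15% and 8.37%. All were searched on both strands, among 11 motifs counted, and the shares are descriptions. Of the 6 marker genes, Zfp820 had a promoter in the table without the core, and Gml, Gml2 and Rsph1 had none there.

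The libraries gave 401, 146, 337 and 115 early pachytene cells, with 3298914, 1394675, 2498658 and 1080290 UMIs in all and medians of 7907, 8758, 7021 and 9041 UMIs per cell. No barcode of these cells occurred among the early pachytene cells of another library. The median mitochondrial share was 8.54%, 10.1%, 6.9% and 10.0%. Only 9 of the 999 cells had under 1% mitochondrial UMIs, the study's own limit, which was therefore not used. Levels below are in CPM, the UMIs of a gene scaled to a fixed total of UMIs of the summed cells.

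The marker genes that chose the cells are given as a description. Gml and Gml2, neighbouring genes of 1 family on chromosome 15 whose reads may be shared, stood at 328, 331, 248 and 540 CPM and at 252, 250, 223 and 368 CPM. Tesmin, a testis-specific metallothionein-like protein gene on chromosome 19 (3388857 to 3407823), stood at 284, 312, 274 and 389 CPM. 1700102P08Rik stood at 215, 161, 183 and 206 CPM. Gml, Gml2 and Tesmin were highest in Sox17-cKO 2, and Tesmin and Gml were higher in both libraries numbered 2, Gml by little in control 2. Rsph1, which encodes a protein of the radial spoke head of the flagellum, was at 823, 295, 631 and 343 CPM, high in both libraries numbered 1. Zfp820, a zinc finger gene, was at 97.9, 3.59, 450 and 4.63 CPM and separated the libraries by number even more.

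A UMI of Zfp820 was found in 20.7%, 2.74%, 20.5% and 3.48% of the early pachytene cells. In cells of the Sertoli gate (no germ UMI and at least 3 of 6 Sertoli genes, medians of 4859, 4318.5, 3351 and 5680 UMIs) the same shares were 6.61%, 5.33%, 2.76% and 3.93%. In control 2 and Sox17-cKO 2, the share of early pachytene cells with a Zfp820 UMI was thus no higher than in the Sertoli gate, and the cells were in effect chosen by the other 5 genes. Zfp820 in the Sertoli gate stood at 6.65 to 12.2 CPM, and whether that is free RNA or expression was not tested. Rsph1 had a UMI in 89.0%, 50.7%, 85.8% and 54.8% of early pachytene cells and in 32.3%, 22.5%, 39.4% and 20.3% of Sertoli-gate cells. Gml, by contrast, was found in 67.1% to 92.2% of early pachytene cells and in 0.288% to 3.77% of Sertoli-gate cells.

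Of the germ cells that met all other criteria, 1152 had 2 marker genes and stood just outside the rule, and 433 members had 3 and stood just inside. A further 1220 barcodes met every criterion except the upper limit, having over 4500 genes, with a median of 30537.5 UMIs. Of the 999 cells, 524 also had at least 3 of 6 leptotene and zygotene genes (Prdm9, Meiob, Dmc1, Rad51ap2, Spata22, Gm960).

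The label was checked on genes outside the rule. Hormad1, which encodes an axis protein of meiotic chromosomes, stood at 1210, 1060, 954 and 746 CPM, against 31.2, 3.87, 57.1 and 6.65 CPM in Sertoli-gate cells. Sycp1, the central filament of the synaptonemal complex, stood at 2380, 3050, 2350 and 2770 CPM. Spermatogonial Gfra1 was at 0.0 to 2.15 CPM and Zbtb16 at 2.78 to 10.6 CPM, and the spermatid gene Prm1 had no UMI. Pgk2, which is switched on later in pachytene, was at 0.909 CPM or less. These values go with meiotic prophase. Against the label, Stra8, which marks entry into meiosis, was still at 64.3, 131.0, 208.0 and 117.0 CPM. The linker histone Hist1h1t of mid pachytene was at 45.2, 17.9, 49.6 and 25.9 CPM. Ldhc, also a gene of mid to late pachytene, was at 183, 32.3, 191 and 35.2 CPM.

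**Figure D1:**
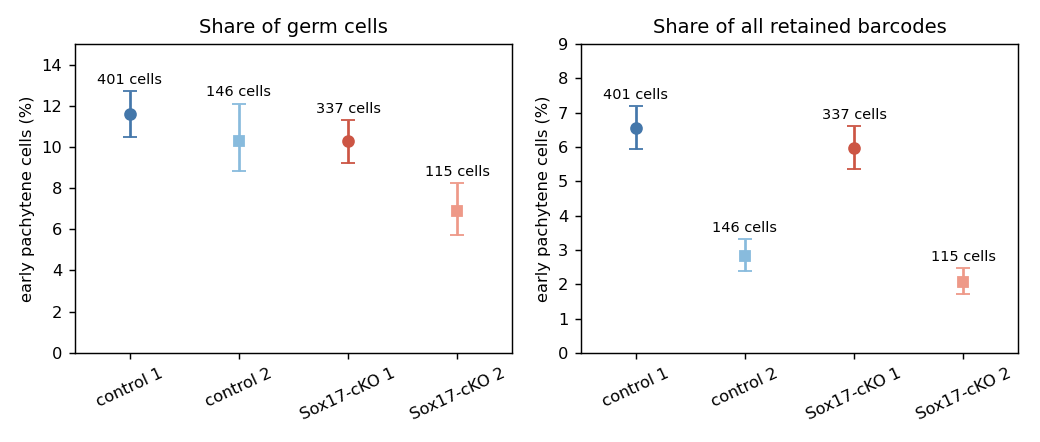
Early pachytene cells in each library as a percentage of germ cells (left) and of all retained barcodes (right); points are shares, bars are exact 95% binomial intervals, and the number of cells stands above each point. Of germ cells the shares run from 6.9% to 11.6%, with Sox17-cKO 2 lowest; of all barcodes, both libraries numbered 1 lie above both numbered 2.

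Whether the somatic loss of Sox17 changed how many germ cells reached this stage was asked by their share. Early pachytene cells made up 11.6% of germ cells in control 1 (95% exact binomial interval 10.5% to 12.7%), 10.3% in control 2 (8.81% to 12.1%), 10.3% in Sox17-cKO 1 (9.24% to 11.3%) and 6.9% in Sox17-cKO 2 (5.73% to 8.23%). The intervals cover counting error only. The mean was 11.0% in controls and 8.58% in Sox17-cKO, a difference of -2.39 percentage points (exact two-sided permutation test over the libraries, p = 0.333, the smallest that 2 against 2 can give). The difference was -1.33 points between libraries numbered 1 and -3.44 between those numbered 2. It rested much on Sox17-cKO 2, without which it was -0.708, and it was -0.663 when each cell was thinned to 3000 UMIs. Germ cells here were all retained barcodes with at least 3 germ UMIs. Those outside the early pachytene, leptotene/zygotene and Stra8 gates (other germ cells) held Sertoli genes at 33.5%, 17.4%, 52.0% and 31.0% of the Sertoli-gate level. Without barcodes over 0.5% somatic UMIs, germ cells went from 3461, 1411, 3285 and 1666 to 2496, 1273, 2276 and 1231. The difference was then -1.7 points, and the part of somatic RNA was not tested. Of all retained barcodes the cells made up 6.54%, 2.82%, 5.96% and 2.05%, so that here the library number separated the values and the genotype did not.

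Expression in the early pachytene cells was then compared between genotypes. Of 10000 genes tested on UMIs summed per library, none passed an adjusted p of 0.05 (edgeR quasi-likelihood test, 0.0% called; 15 genes had an unadjusted p under 0.05). DESeq2 also called 0, with 9 such genes. Both counts are far below a share of 0.05 of the genes tested, so the tests were conservative. With 2 libraries per genotype, 0 calls do not show that the genotypes were alike. No member of any of the gene lists described below was called. The list medians between genotypes lay between -0.26 and 0.09 on the log2 scale for all lists but 1, beside -0.01 for all genes. The exception was the list of stroma and myoid genes, with a median of 0.99 over 9 genes, none called. Its summed level in early pachytene cells was 262, 942, 830 and 978 CPM, lowest in control 1. Myl9, a smooth muscle myosin light chain, had the smallest unadjusted p of all genes (0.00367, adjusted p = 1.0 by edgeR) at 19.4, 20.1, 64.8 and 48.1 CPM. The part of stromal RNA in these differences was not tested.

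Hormad1 was lower by 0.47 on the log2 scale in Sox17-cKO (log2 fold change -0.47, SE 0.238, edgeR adjusted p = 1.0), at the levels given above. The 2 groups did not overlap, as held for 14.9% of the 10000 genes. Sox17 itself, the targeted gene, gave 5, 2, 0 and 0 UMIs in these cells, and 0 UMIs allow up to 1.2 CPM in Sox17-cKO 1 and 2.78 CPM in Sox17-cKO 2. Sox17 stood at 1.52 CPM in control 1 and 1.43 CPM in control 2 and was too low to test between genotypes. These counts are no check of the deletion in somatic cells. Whether the step into pachytene differed by genotype was asked as an interaction of stage and genotype. Of 10894 genes, edgeR called 0 (0.0%, 140 with an unadjusted p under 0.05), and DESeq2 called 0, with 17 such genes. Here too these counts were below a share of 0.05 of the genes, so 0 calls do not show that the step was alike.

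For what sets the early pachytene cells apart, they were compared with the most similar germ cells. These were 1153 cells of a leptotene/zygotene gate, which had the same gene and germ limits, at least 3 of the 6 leptotene and zygotene genes and fewer than 3 of the pachytene markers. That gate also took in cells entering meiosis, with Stra8 at 515, 733, 756 and 728 CPM. Remaining germ cells with a Stra8 UMI formed the Stra8 gate, which was not part of this test. A gene higher than in the leptotene/zygotene gate was thus not always higher than in the Stra8 gate. UMIs were summed per gate and library and the library was kept as a block. Neither the genes of the gates nor Stra8 were tested. Since both groups were picked on transcripts of the same cells, the number of calls describes how far apart the gates lie and does not test the label. Of 10894 genes, 4996 were called (45.9%; edgeR adjusted p under 0.05), 2610 higher (24.0%) and 2386 lower (21.9%) in early pachytene cells. Without the library block 2630 genes were called. The levels of the 4 libraries did not overlap between the gates for 28.4% of the genes. The test took genes with at least 4.32 CPM (10 UMIs at the median sum) in at least 2 of the 8 sums, so a gene could enter through 1 gate alone, with fewer than 2 libraries of the other gate at the limit. This held for 789 genes through early pachytene cells, 386 of them called higher, and for 400 through the leptotene/zygotene gate, 152 of them called lower. In the lists below the medians, and the counts where they differ, are over genes with at least 2 libraries at the limit in both gates.

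Among the genes with the smallest adjusted p of those higher in all 4 libraries was Cks2, a partner of cyclin-dependent kinases that is required for male meiosis. It rose from between 187 and 304 CPM to between 885 and 1280 CPM (log2 fold change 2.24). Psma8, the proteasome subunit of spermatocytes, rose by a log2 fold change of 2.69 and Rangrf by 2.93. Fsip2 and Ropn1l, which encode proteins of the sperm tail sheath and the radial spoke, rose by 3.34 and 2.75. Calm2 (calmodulin, 1.46), Pabpc1 (poly(A) binding, 1.64) and the loci AC125141.3 (4.94) and Gm11837 (2.30) were also among them. Calm2 and Pabpc1 have close copies elsewhere in the genome, so their levels are less certain.

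The corresponding 10 lower genes held 3 clustered histone genes. Hist1h1a, a linker histone of dividing cells, stood at 117, 63.8, 238 and 47.2 CPM against 459, 245, 655 and 187 CPM (log2 fold change -1.80, SE 0.105, adjusted p = 5.21e-11). Sox17-cKO 1 was highest in both gates, but within every library the early pachytene cells were lower. Hist1h2aa fell by 1.26 and Hist1h2bm by 2.19 on the log2 scale. The others were Kif23 (a cytokinesis kinesin, -1.72), Haus8 (an augmin subunit for spindle microtubules, -1.68), Auts2 (-1.62), Elavl2 (an RNA binding protein, -1.54), Tpgs2 (tubulin polyglutamylation, -1.51), Lrrc42 (-1.32) and Hmgn2 (nucleosome binding, -1.28).

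**Figure D2:**
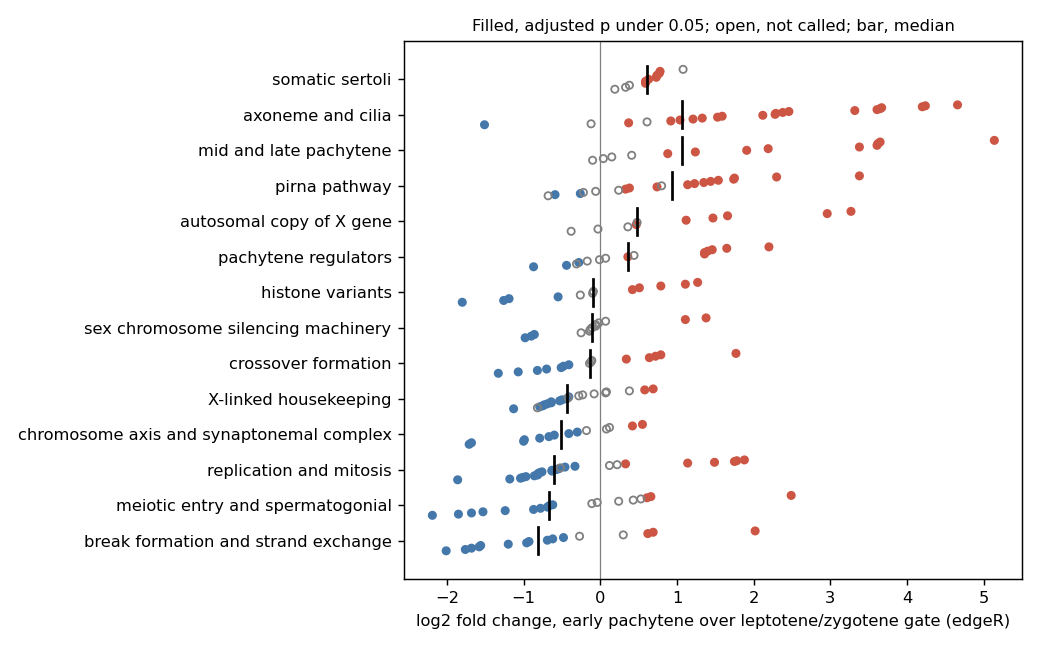
Log2 fold change of each tested gene between early pachytene and leptotene/zygotene-gate cells, in the gene lists; filled points passed an adjusted p of 0.05 (red higher, blue lower), open points did not, and the bar is the list's median over genes at the filter limit in both gates. The piRNA genes lie mostly to the right, with a median of 0.94, and break formation genes mostly to the left, with a median of -0.81.

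Genes that make and process meiotic DNA breaks were mostly lower. Of 16 tested, 11 were lower and 3 higher (median log2 fold change -0.81, beside 0.01 for all genes at the limit in both gates). Mei1 and Mei4, both needed to form the breaks, fell by 2.01 and 1.58 on the log2 scale, as did Ccdc36 (Iho1, their partner) by 1.76. Atm, the kinase that senses the breaks, stood at 47.9, 49.5, 80.0 and 68.5 CPM against 192, 174, 228 and 180 CPM, and the groups did not overlap (log2 fold change -1.68). Mnd1 moved the other way. It acts with Psmc3ip to promote strand invasion, and was at 96.1, 57.4, 69.2 and 62.0 CPM against 27.6, 12.6, 17.8 and 12.1 CPM (log2 fold change 2.02, adjusted p = 1.21e-09).

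Crossover genes were split, with 5 of 15 higher and 7 lower (median -0.14). Cntd1, which acts late to mature crossovers, was at 175, 146, 138 and 156 CPM against 37.8, 54.6, 46.3 and 42.2 CPM (log2 fold change 1.77). Mlh3, of the late mismatch repair complex at crossovers, rose by 0.79. Tex15 (-1.33), the X-linked Tex11 (-0.70), Msh5 (-0.82) and AI481877 (Shoc1, -1.07), which act earlier on recombination intermediates, were lower.

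Of 14 genes tested (15 measured) for the chromosome axis and synaptonemal complex, 9 were lower and 2 higher (median -0.51). The cohesin genes Rad21l (-1.71), Smc1b (-0.79) and Stag3 (-0.67) fell, together with the central element genes Syce1 (-1.0), Syce2 (-0.99) and Tex12 (-0.60). Sycp1 rose by 0.42 (SE 0.0771, adjusted p = 0.000129) and Hormad1 by 0.55 (SE 0.0888, adjusted p = 3.64e-05), both higher in all 4 libraries. Sycp2 (0.12), Syce3 (0.08) and Hormad2 (-0.18) did not pass the test.

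Among known regulators of the pachytene program, 7 of 15 tested were higher and 3 lower (median 0.36), and the other 5 were too low to test. Hspa2, a chaperone needed to leave pachytene, was at 760, 407, 521 and 492 CPM against 117, 120, 142 and 88 CPM (log2 fold change 2.20, SE 0.127, adjusted p = 5.09e-11). Brdt, a bromodomain protein of spermatocyte chromatin, rose by 1.65, Ybx2, which stores mRNA, by 1.40, and the transcription factor genes Tcfl5 and Sox30 by 1.36 each. Mybl1 itself was about as high in both gates, at 115, 148, 158 and 145 CPM against 115, 125, 176 and 126 CPM (0.07, SE 0.107, adjusted p = 0.604). The X-linked Taf7l (-0.87) and Meioc (-0.44), a regulator of meiotic progression, fell.

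The piRNA pathway, which guards germ cells against transposons, had 12 of 18 genes higher and 2 lower (median 0.94), with 1 more that entered only through early pachytene cells and was not called and 2 too low to test. Piwil1 (MIWI), the PIWI protein that first appears in pachytene, was at 95.5, 13.6, 70.4 and 31.5 CPM against 8.29, 2.44, 7.65 and 1.05 CPM (log2 fold change 3.38). Piwil2 (MILI) rose by 1.74, the helicase gene Mov10l1 by 1.23, and the Tudor genes Tdrd5, Tdrd9 and Tdrd1 by 2.30, 1.75 and 1.54. Tdrd1, unlike the other piRNA genes named here, was no higher than in the Stra8 gate (means of 58.6 and 63.1 CPM). Of the 38 genes for axoneme and cilia, 16 were too low to test and 13 entered the test only through early pachytene cells, so that their being higher is no result. Among them, Spag17 of the central pair gave 175 UMIs against 6 in the leptotene/zygotene gate, and the dynein assembly factor Zmynd10 126 against 6. Of the 8 that reached the limit in both gates, 6 were higher and 0 lower, and the remaining gene, Rsph10b, entered only through the leptotene/zygotene gate and was lower. Ccdc39 of the dynein ruler rose by 3.65, Meig1 by 3.61, Dnah8 by 2.29 and Ift57 by 1.21. Rsph1, which helped choose the cells, belongs to the same structure.

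Of 19 measured mid and late pachytene genes, 6 were too low to test and 3 entered only through early pachytene cells. Of the 10 that reached the limit in both gates, 6 were higher and 0 lower. Ldhc, the lactate dehydrogenase of sperm, was at 183, 32.3, 191 and 35.2 CPM against 12.4, 0.407, 23.3 and 0.527 CPM (log2 fold change 3.62). Clgn, a testis chaperone, rose by 1.91 and Tbpl1, a TBP-related factor, by 1.24. Adam2, a sperm surface protein gene that entered through early pachytene cells alone, gave 199 UMIs against 5. Hist1h1t did not pass (-0.10). Of 15 spermatid genes only Spaca1 and Oaz3 were high enough to test, and Spaca1 rose by 1.78 whereas Oaz3 did not pass (-0.11).

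Of 26 genes for replication and mitosis, 17 were lower and 6 higher (median -0.60). The replication genes Rrm2 (-1.86) and Mcm6 (-1.01) fell. The 17 lower genes were more than the replication genes of the list, so genes for mitosis were among them too. The 6 that rose were the kinase genes Cdk1 (1.78) and Aurka (1.75), the cyclin genes Ccnb2 (1.49) and Ccnb1 (1.14), and Cdc20 (1.88) and Ube2c (0.33), which act with the anaphase-promoting complex. Ccnb1 and Ube2c, at means of 65.9 and 79.5 CPM, were below the Stra8 gate (145 and 200 CPM). Cdk1, Aurka, Ccnb2 and Cdc20 had means above that gate. Ccnb1 and Ube2c were named after their values were seen, and Ube2c passed narrowly (edgeR adjusted p = 0.0412) and did not pass under DESeq2 or without control 2 (0.33), Sox17-cKO 1 (0.26) or Sox17-cKO 2 (0.28). Of 18 genes tested (22 measured) for meiotic entry and spermatogonia, 10 were lower and 3 higher, all among the 17 that reached the limit in both gates. Ctcfl (-2.19), Gm4969 (Meiosin, -1.85), Kit (-1.53), Rhox13 (-1.24) and Esx1 (-0.78) fell. Id4, known from spermatogonial stem cells, rose by 2.49 and was at 51.8, 10.0, 34.8 and 16.7 CPM. In Sertoli-gate cells it stood at 34.8, 41.1, 43.3 and 40.2 CPM, and the part of Sertoli RNA in its rise was not tested. Histone variant genes were split, with 5 of 12 tested higher and 4 lower (median -0.09) and 2 too low to test. H2afy (macroH2A) rose by 1.27, H2afv by 0.79 and H3f3a by 0.51. Their means were 117, 659 and 1140 CPM, beside 104, 713 and 1790 CPM in the Stra8 gate. H2afv and H3f3a were thus not above that gate.

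The X chromosome was examined because it is silenced at this stage. No gene of the rule or of the leptotene/zygotene gate is X-linked. X-linked genes gave 2.35%, 2.53%, 2.58% and 2.46% of the UMIs of nuclear genes in early pachytene cells and 3.02%, 2.87%, 2.94% and 2.88% in the leptotene/zygotene gate. The share was lower in all 4 libraries, by -0.669, -0.338, -0.357 and -0.425 percentage points, with a mean of -0.447 ± 0.153 (SD, n = 4 libraries). An exact two-sided sign-flip permutation test gave p = 0.125, the smallest that 4 libraries allow. The mean difference was -0.882 when cells were thinned to 3000 UMIs and -0.81 when 4 of the 6 markers were required. The share was 2.49% to 2.82% in germ cells of the Stra8 gate, which overlapped the early pachytene range. It was 2.88% to 3.31% in other germ cells and 4.45% to 4.85% in Sertoli-gate cells. When barcodes over 0.5% somatic UMIs were left out, early pachytene cells were at 1.94%, 2.44%, 2.26% and 2.41%. Other germ cells were then at 2.26%, 2.39%, 2.4% and 2.26%, higher in both libraries numbered 1 and lower in both numbered 2. The leptotene/zygotene gate was then at 2.83% to 2.89%, above both. The Y-linked share of all early pachytene cells was small, at 0.0574%, 0.081%, 0.0607% and 0.0799%. Its difference from the leptotene/zygotene gate had both signs.

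**Figure D3:**
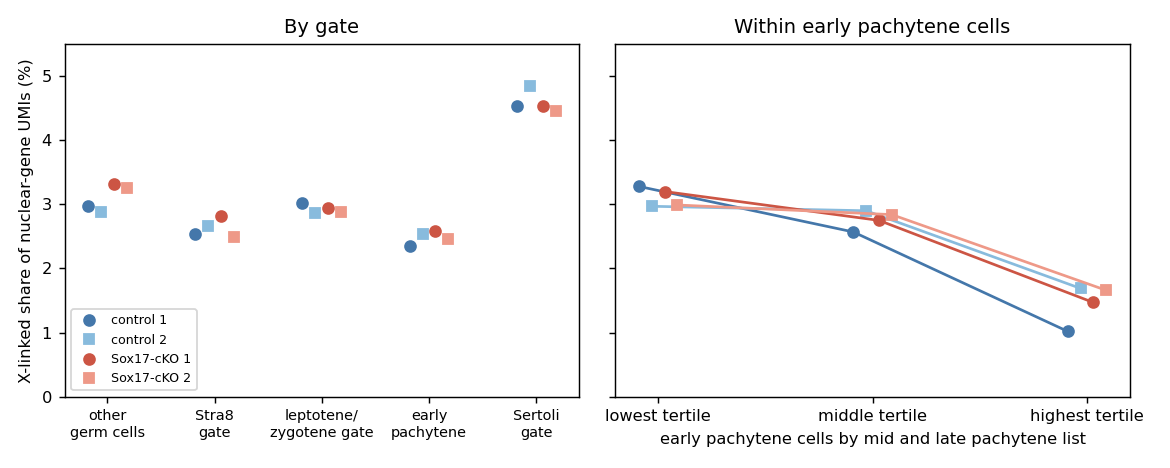
X-linked share of nuclear-gene UMIs (%) by gate, 1 point per library (left), and in early pachytene cells split into tertiles within each library by their share of UMIs from the mid and late pachytene list (right). In the highest tertile the 4 libraries lie between 1.02% and 1.69%, below the lowest tertile at 2.97% to 3.28%.

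Gene by gene, 130 of 455 X-linked genes tested were lower (28.6%) and 66 higher (14.5%), with a median log2 fold change of -0.14. On the 19 autosomes the share of lower genes ran from 15.5% to 26.0%, that of higher genes from 21.2% to 28.5%, and the medians from -0.03 to 0.18. The X thus stood outside the autosomal range on all 3 counts. These counts take all genes tested, also those that entered through 1 gate alone, on the X and the autosomes alike. The comparison without such genes was not made. Of the 10 X-linked genes with the most UMIs in the leptotene/zygotene gate, 6 fell: Rpl36a (-0.73), Rpl39 (-0.64), Taf7l (-0.87), Fmr1 (-0.61), Cited1 (-0.96) and 1700013H16Rik (-1.03). Ndufa1 (-0.05), Gm364 (-0.11) and Scml2 (-0.06) did not pass. Tmsb4x had the highest mean level of the X-linked genes in early pachytene cells and rose by 0.55. In control 2 and Sox17-cKO 2 it lay below Ndufa1 (773 and 899 CPM). It was at 1740, 591, 1860 and 387 CPM against 1480, 320, 894 and 402 CPM, higher in 3 of 4 libraries and high in both numbered 1, as the Sertoli list was. In Sertoli-gate cells it stood at 6750 to 8480 CPM, and the part of Sertoli RNA in its difference was not tested.

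**Figure D4:**
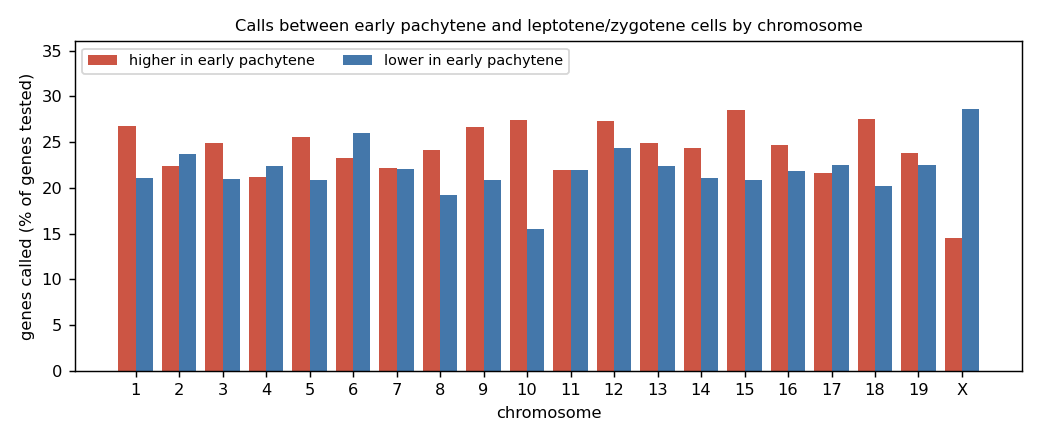
Percentage of tested genes called higher (red) and lower (blue) in early pachytene than in leptotene/zygotene-gate cells, for each autosome and the X. On the X 28.6% were lower and 14.5% higher, whereas no autosome exceeded 26.0% lower or fell under 21.2% higher.

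Several X-linked housekeeping genes have autosomal retrocopies that are used in the testis. Of the 13 parent genes with a copy in the list, 7 were lower and 2 higher (median -0.53). Cstf2 (-0.75) and Rpl10 (-0.53) fell, whereas Rbmx (0.58) and Cetn2 (0.69) rose and Tktl1 (0.08) did not pass. Rbmx passed narrowly (edgeR adjusted p = 0.0458) and did not pass without control 2 (0.64), without Sox17-cKO 2 (0.28) or under DESeq2 (0.60). Of 8 other X-linked housekeeping genes, which have no copy in the list, 4 were lower and 0 higher (median -0.41), with Kdm6a (-1.13) and Hprt (-0.79) among the lower. Of 13 autosomal copies 3 were too low to test, and of the 9 that reached the limit in both gates 5 were higher and 0 lower (median 0.48). Tktl2 was at 88.8, 65.2, 60.8 and 56.5 CPM against 7.83, 5.7, 9.11 and 4.74 CPM (log2 fold change 3.27), Pdha2 rose by 1.66, Rpl10l by 1.47, Rpl39l by 1.12 and Rbmxl2 by 0.47. Cetn1 entered only through early pachytene cells and gave 181 UMIs against 21. Copies and parents are similar in sequence, so reads may have been divided between them. Of 13 genes for the silencing machinery, 2 were higher, 3 lower and 8 not called. H2afx, the histone that is phosphorylated over the sex body, was at 414, 322, 261 and 433 CPM against 147, 162, 182 and 164 CPM (1.11), and Atf7ip, a partner of SETDB1, rose by 1.38. Setdb1 (-0.98), Brca1 (-0.86) and Etaa1 (-0.90) fell, and Topbp1 was at -0.14 (adjusted p = 0.173).

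The early pachytene cells were not uniform. Within each library they were divided into tertiles by their share of UMIs from the mid and late pachytene list, a division made after the data were seen and given without a test. The X-linked share was 2.97% to 3.28% in the lowest tertile over the 4 libraries, 2.57% to 2.90% in the middle and 1.02% to 1.69% in the highest. The leptotene/zygotene gate, at 2.87% to 3.02%, lay near the lowest tertile. Stra8 went from 139 to 417 CPM in the lowest tertile to 10.9 to 86.2 CPM in the highest, Prdm9 from 57.3 to 162 CPM to 4.97 to 23.8 CPM and Tex15 from 790 to 1300 CPM to 165 to 232 CPM. Hspa2, which was not in the list used for ranking, went from 145 to 188 CPM to 782 to 1580 CPM. Hormad1 went from 546 to 732 CPM to 1010 to 1870 CPM. None of these ranges overlapped between the lowest and highest tertile. Those of Dmc1 did, at 152 to 491 CPM in the lowest and 79.4 to 184 CPM in the highest. The share of all genes without overlap was not counted. UMIs of somatic marker lists made up 0.292% to 0.726% of the lowest tertile and 0.0634% to 0.332% of the highest. With cells over 0.5% somatic UMIs left out, the X-linked shares of the lowest and highest tertile were 2.72% to 2.92% and 0.861% to 1.69%. The leptotene/zygotene gate was then at 2.83% to 2.89%, above the lowest tertile in 3 of 4 libraries, whereas with all cells the lowest tertile was above the gate in each.

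Under the rule as set, the X-linked share did not separate genotypes. It averaged 2.44% in controls and 2.52% in Sox17-cKO, a difference of 0.079 points (exact two-sided permutation test, p = 0.667, smallest possible 0.333). Between libraries numbered 1 it was 0.229 and between those numbered 2 it was -0.0706, and without control 1 it was -0.01. With no upper limit on genes the groups did not overlap, at 2.45% and 2.33% in controls and 2.52% and 2.53% in Sox17-cKO.

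**Figure D5:**
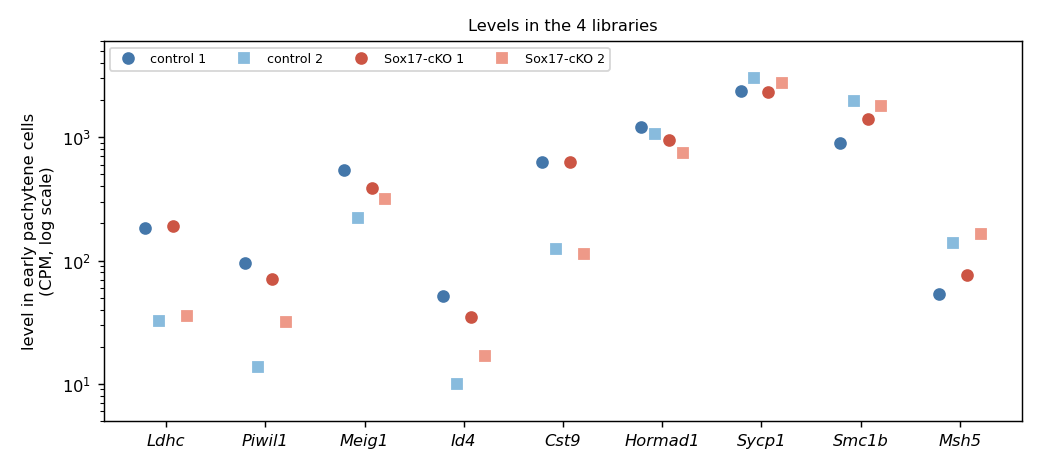
Level in early pachytene cells (CPM, log scale) of 9 genes in the 4 libraries. Circles are libraries numbered 1 and squares those numbered 2; Ldhc, Piwil1 and Cst9 are higher in both circles, and Smc1b and Msh5 in both squares, in either genotype.

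A difference between libraries by number was larger than that by genotype. The count tables of control 1 and Sox17-cKO 1 carry Cell Ranger version 6.0.2 and those of control 2 and Sox17-cKO 2 version 6.1.2, and any other difference between these pairs cannot be told apart from it. Comparing the numbers, which was added once the values were known, edgeR called 2642 of 10000 genes (26.4%), 1161 higher (11.6%) and 1481 lower (14.8%) in the libraries numbered 2, and DESeq2 called 1199. Ldhc was lower by 2.40 on the log2 scale (log2 fold change -2.40, edgeR adjusted p = 7.37e-06), Piwil1 by 1.86 (-1.86) and Id4 by 1.67 (-1.67). Msh5 (1.30), Tex12 (0.86) and Smc1b (0.81) were higher, as were 5 of 14 axis genes, with 0 lower.

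Sertoli transcripts moved with the same pairs. The 11 genes of the Sertoli list summed to 4070, 695, 3590 and 623 CPM in early pachytene cells and to 17000, 14600, 13500 and 15400 CPM in Sertoli-gate cells, so that early pachytene cells held 23.9%, 4.76%, 26.6% and 4.05% of the Sertoli level. Cst9, a cystatin of Sertoli cells, stood at 631, 125, 634 and 112 CPM. Against the leptotene/zygotene gate 7 of the 11 Sertoli genes were called higher and 0 lower (median 0.61 over 10 at the limit in both gates), with Cst9 (0.74), Cst12 (0.73), Clu (0.77), Inha (0.78), Rhox8 (0.63) and Aard (0.59) among them. Without barcodes over 0.5% somatic UMIs, a limit that counts these genes themselves, the same 6 were at 0.07 to 0.22 and did not pass. Of 11 stroma and myoid genes 3 were higher (Acta2 1.29, Tagln 1.06, Myh11 1.72) and 0 lower. Under the same somatic limit Acta2 (0.12) and Tagln (0.29) did not pass. Without Sox17-cKO 1, Tagln (0.62) and Myh11 (0.53) did not pass, and with no upper limit on genes all 3 were below 0 and not called. The Leydig list summed to 8.0 to 16.7 CPM, the macrophage list to 1.21 to 5.02 CPM and the endothelial and rete lists to 2.78 to 7.17 CPM. The part of somatic RNA in the differences by stage and by library number was not tested; without barcodes over 0.5% somatic UMIs, 5076 genes were called between the stages, 4500 of them also called with all cells.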

How the data were processed

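Single-cell RNA libraries were made with the 10x Genomics 3' kit (v3 per the labels, v3.1 in the study's methods) from P14 proximal testis. The authors deposited UMI counts per gene and barcode, made with Cell Ranger (6.0.2 and 6.1.2 in the file headers) against mm10 (GRCm38). The counts are whole numbers, not normalized, for 31053 features, and 2 tables that pool libraries were not used. GENCODE vM21 served for coordinates (31011 identifiers matched).

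Cells, gates and gene lists were chosen with earlier results of these data known. Doublets were not removed beyond the upper limit of 4500 genes. UMIs were summed per library and gate and tested with edgeR 4.0.16 (TMM, filterByExpr, quasi-likelihood F test, Benjamini-Hochberg adjustment over all genes tested, threshold 0.05, two-sided) in R 4.3.3. The 9 rule genes were left out of all tests, but kept in library totals. Levels in CPM use all UMIs, whereas fold changes use TMM scaling. Standard errors were the fold change over the root of F. Single values were tested by exact permutation over libraries. Shares have Clopper-Pearson intervals at 95%. The limit for a count of 0 was 3 UMIs. PCR duplicates were collapsed by UMI, and the intervals cover counting error only. In the smallest sum of early pachytene cells (1080290 UMIs) 1 UMI is 0.926 CPM. The steps were tested on simulated data. Python 3.11.15, NumPy 2.4.6, SciPy 1.17.1 and pandas 2.3.3 were used.

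Named genes were, for each list, up to 6 tested members with the smallest adjusted p between stages, 10 each way that moved alike in all 4 libraries and ranked first by adjusted p, genes called between genotypes, the rule genes, Sox17, the 10 X-linked genes with the most UMIs in the leptotene/zygotene gate and the 5 with the highest level in early pachytene cells. The tertiles, the X-linked pairs, Myl9 and the genes named for the library numbers were chosen after their values were seen. Some genes that this rule names are not reported here. Alternatives were DESeq2 1.42.0, other normalization, filters, marker limits, thinning and leaving out each library.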

Additional observations from a re-analysis of the deposited data

How the results depend on the processing

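The results were recomputed with DESeq2, RLE normalization, no filter on low counts, leaving out each library, blocks, 4 markers, no upper limit on genes, a mitochondrial limit of 10%, a somatic limit of 0.5%, thinning to 3000 UMIs and other denominators. A rule without Zfp820 was added after the data were seen. Between genotypes the number of genes called was 0 under each alternative that was run, except 1 (Gc) with no filter on low counts. With the replicate block it was also 0 (201 genes at an unadjusted p under 0.05). Deviations of same-numbered libraries correlated at 0.667 across 10000 genes, and same-numbered tables also share the Cell Ranger version. With 2 pairs and no label for a common litter, batch or day, the numbers were not taken as a pairing. With the replicate block the share of germ cells differed by -2.39 points and the X-linked share by 0.079, as without it. A replicate block for the X-linked difference between stages was not run, since each library is already its own pair.

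Between stages, 2630 genes were called with no library block, 2629 of them also among the 4996. The other alternatives gave 3658 (DESeq2) to 5864 (no upper limit on genes), and leaving out each library 4231 to 4506. Every gene shared with those 4996 kept its direction, except 2 of 4096 with no upper limit. For the interaction, 3 genes were called with no filter (Col3a1, Col1a2 and Col1a1), and leaving out each library gave 0 to 5 genes (Col3a1 without Sox17-cKO 1; Col3a1, Col1a2, Col1a1 and Gpr137c without control 2; Eln, Dcn, Crip1, Lgals1 and Acta2 without Sox17-cKO 2). Most of these are stromal genes. The comparison by library number, added after the data were seen, gave 1199 calls with DESeq2 against 2642. The cause of these shifts was not tested. The mean share of germ cells stayed lower in Sox17-cKO under each alternative, from -0.663 (thinned) to -4.06 points (without Sox17-cKO 1). With thinned cells the shares were 8.22%, 4.89%, 6.31% and 5.48%, so both Sox17-cKO libraries lay between the controls. The X-linked share stayed lower than in the leptotene/zygotene gate under each alternative, from -0.373 to -0.882 points. Its genotype difference ran from -0.01 (without control 1) to 0.168 when each library was left out in turn. It was 0.192 with 4 markers and 0.137 with no upper limit on genes. Each of these gave p = 0.333 by the exact permutation test, the smallest possible.

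Of the 118 genes named with a value between stages, these changed sign. With no upper limit on genes Acta2 went to -0.32, Tagln to -0.11, Myh11 to -0.59, Tktl1 to -0.26, Rbmx to -0.0, Ube2c to -0.11 and Hist1h1t to 0.28. With 4 markers Tagln went to -0.17, Ndufa1 to 0.0 and Hist1h1t to 0.16. Without Zfp820 Ndufa1 was at 0.03, Scml2 at 0.01 and Hist1h1t at 0.02, and with the somatic limit they were at 0.01, 0.04 and 0.01. Ndufa1 was at 0.0 with no library block and Hist1h1t at 0.03 with the mitochondrial limit. When each library was left out in turn, Tktl1 ran from -0.03 to 0.20, Oaz3 from -0.25 to 0.03, Ndufa1 from -0.10 to 0.04, Gm364 from -0.21 to 0.0, Scml2 from -0.17 to 0.04, Syce3 from -0.04 to 0.21 and Hist1h1t from -0.33 to 0.05. In 56 further gene and setting pairs a called gene was no longer called, mostly of Sertoli and stromal genes, Rbmx and Ube2c.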

Other observations

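Cells with more of the 6 marker genes held a lower X-linked share of UMIs in every library. The number of markers is part of the rule, so this is a description. Cells with 3 markers had X-linked shares of 3.19% and 2.96% in the control libraries and of 3.02% and 2.90% in the Sox17-cKO libraries. In the same order, cells with 5 or 6 markers had 1.42%, 1.70%, 1.88% and 1.89%, and they were also deeper, at medians of 10080.5, 10032.5, 8153 and 11276 UMIs against 7089, 8388, 6685 and 7846. UMIs of the somatic lists made up 0.12% to 0.691% in cells with 3 markers and 0.0626% to 0.249% in those with 5 or 6, lower in each library. Stra8 was at 147 to 348 CPM in cells with 3 markers and at 8.78 to 56.4 CPM in those with 5 or 6. The part of depth and of somatic RNA in these differences was not tested.

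Zfp820 was concentrated in few cells. In Sox17-cKO 1 it gave 1125 UMIs, of which 5 cells held 508 and 1 cell 157. The cells with a Zfp820 UMI there numbered 69, and Ldhc stood at 273 CPM in them and at 170 CPM in the other 268. In control 1, 83 cells had a UMI, with Ldhc at 304 CPM against 149 CPM in the others. Hormad1 went the other way, at 824 against 1320 CPM in control 1 and 546 against 1060 CPM in Sox17-cKO 1.

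The 1220 barcodes with over 4500 genes that met the other criteria had X-linked shares of 2.47% and 2.30% in the control libraries and of 2.51% and 2.55% in the Sox17-cKO libraries. Doublets were not told apart among them.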
